A study of Mus musculus with 37 samples.

Results

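Wild-type (WT) bone marrow-derived macrophages (BMDMs) exposed for 24 h to Kdo2-lipid A (KLA), the lipid A core of lipopolysaccharide and a pure ligand of Toll-like receptor 4 (TLR4), were compared gene by gene with WT BMDMs taken at 0 h. All genes of the RNA-seq table entered the comparison, and the 10487 of 24016 genes with at least 100 scaled reads at 1 or more of the 4 WT times used were analysed. The study sequenced polyA RNA from WT and Arntl-/- BMDMs over a time course of KLA, and the 1 library for each genotype at 0, 6, 24 and 48 h was used here. Arntl encodes the clock factor Bmal1. The cells came from C57BL/6J mice or from Arntl-/- mice bred on a C57BL/6 background, described together as male and aged 6 to 9 weeks. All had spent 6 days in culture with M-CSF. The study's text describes the WT mice once as littermates of the knockouts and once as purchased animals, and does not say whether animals were pooled. Because there was 1 library a side, no difference given here has a replicate check and none carries a test. No unstimulated culture kept for 24 h was analysed here, so KLA and a further day in culture cannot be told apart.

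TLR4 signals through MyD88 and TRIF. The former leads to NF-kappaB and AP-1 and to cytokine, chemokine and enzyme genes, and the latter to IRF3, to interferon-beta and, through its receptor, to the interferon-stimulated genes. Macrophages that have met a TLR4 ligand also transcribe inhibitors of the pathway, shift their metabolism towards glycolysis and slow their division.

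A gene is called higher or lower here if its scaled FPKM differed at least 1.5-fold between 24 and 0 h, the line that the study drew in its own plots. FPKM are on the deposited scale, given as per 10000000 reads, so they are larger than usual FPKM. That scale was not set by the reads on genes alone. Log2 changes were taken after adding 0.1. The 2 libraries held 13080313 reads on genes at 0 h and 10685707 at 24 h. The read numbers behind each ratio gave a 95% counting interval (exact, Clopper-Pearson), which leaves out any variation from culture to culture or mouse to mouse and so covers counting error only. All 15 macrophage markers, among them Csf1r, Emr1, Itgam, Cd68 and Lyz2, were analysed, none was at 0, and their summed FPKM was 28285 at 0 h and 36401 at 24 h. Of 12 neutrophil markers found in the table, 4 were analysed and none was higher or lower, while Elane, Mpo, Prtn3, Ctsg and Retnlg were at 0 reads in both libraries. Of the dendritic cell list 1 of 10 was analysed, of the lymphocyte list 1 of 14, and of the erythroid and mast cell list none of 13. In bulk RNA, fewer cells of a type and less RNA per cell cannot be told apart.

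The change from 0 to 24 h was moderate for most genes. Of the 10487 genes analysed, 911 (8.69%) were higher at 24 h and 926 (8.83%) were lower, and 8650 (82.5%) lay within 1.5-fold. The median log2 change was 0.00, and the middle 90% of genes lay between -0.78 and 0.78. At least 2-fold changes were found for 308 higher and 276 lower genes, and at least 4-fold changes for 32 and 18. The counting interval lay wholly past 1.5-fold for 473 of the higher and 419 of the lower genes. The remainder of the table, 13529 genes, was not analysed, 8989 of them with 0 reads in both libraries.

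**Figure D1:**
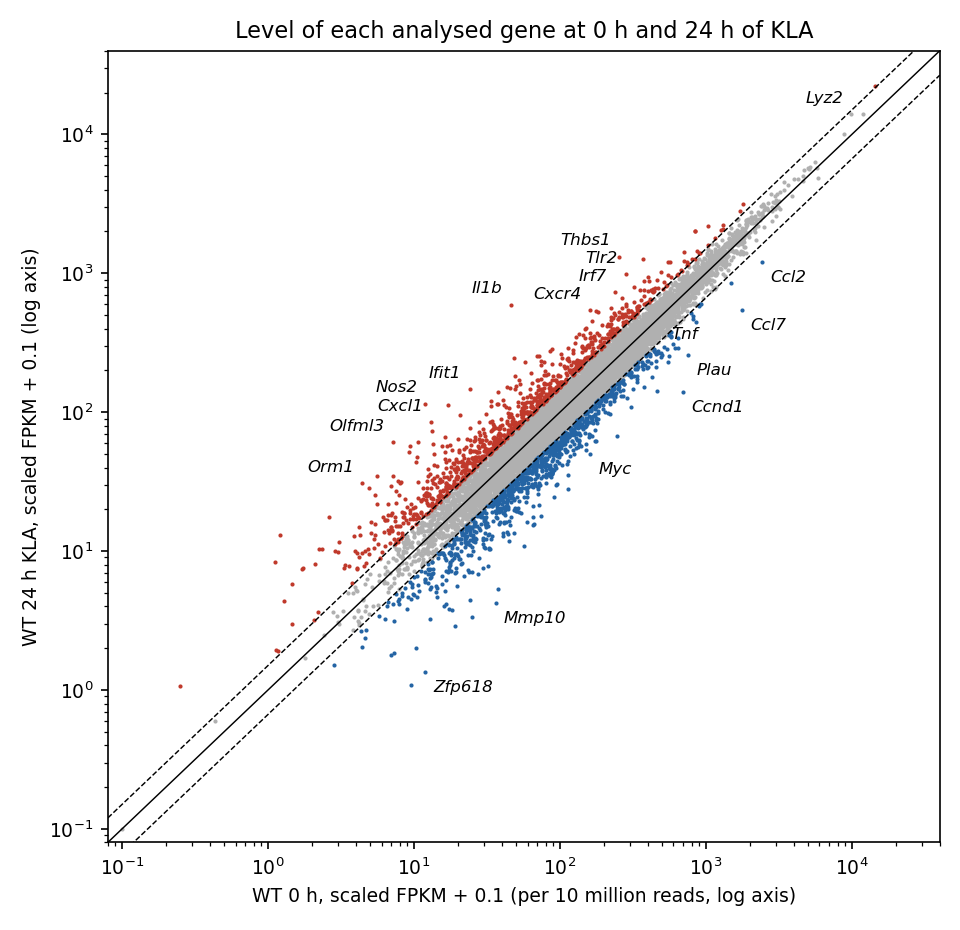
Scaled FPKM plus 0.1 of the 10487 genes analysed in WT BMDMs at 0 h (horizontal) and after 24 h of KLA (vertical), both on log axes, with 1 library each. The solid line marks equal levels and the dashed lines 1.5-fold, beyond which 911 genes (red) were higher and 926 (blue) lower.

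The genes that differed were low to middling in level. The median FPKM (mean of the 2 libraries) was 64.8 for the higher genes and 51.8 for the lower genes, against 116 over all genes analysed. When the genes were ranked by level into 10 equal bins, 18.9% were higher and 23.2% lower in the lowest bin, whereas 6.77% were higher and 1.24% lower in the highest. The median change also went from -0.07 in the lowest bin to 0.09 in the highest, so a list of abundant genes starts slightly above 0. Exon length differed little, with medians of 2643 bases for higher, 2913 for lower and 2798 for all genes analysed. A gene entered if any WT time used passed the read filter, so a scarce gene could enter through its highest time alone. The counting interval lay wholly past 1.5-fold for 473 of the 911 higher and 419 of the 926 lower genes. The part of this filter and of counting error in the shares of each bin was not tested.

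Il1b had the largest change of any gene analysed. Its product, IL-1 beta, is the main secreted cytokine of the inflammasome pathway. Il1b (NM_008361, mm9 chr2:129190316-129196856) stood at 46.2, 162, 594 and 428 FPKM at 0, 6, 24 and 48 h. The level at 24 h was 12.8-fold that at 0 h (counting interval 10.7 to 15.5). Nos2 (NM_010927, chr11:78734361-78773626), the inducible nitric oxide synthase, went from 11.9 at 0 h to 105 at 6 h, 115 at 24 h and 273 at 48 h. At 24 h it was 9.62-fold higher than at 0 h (7.86 to 12.1). Nos2 was therefore already near its 24 h level at 6 h, whereas most of the Il1b difference lay between 6 and 24 h.

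The other genes with the 15 largest changes were of many kinds. Interferon-responsive genes were Ifit1 (log2 change 2.61), its neighbour I830012O16Rik (2.48), and the pyrin and HIN-domain family genes Pydc3 (3.44) and Pydc4 (2.75), which are near copies of each other and of further genes beside them. Cxcl1, a neutrophil-attracting chemokine, changed by 2.70. Orm1, an acute-phase plasma protein, stood at 4.34, 2.69, 30.6 and 72 FPKM at 0, 6, 24 and 48 h, a change of 2.79 that rested on 7 and 39 reads. H2-M2, a non-classical MHC class I gene, went from 17 to 112 FPKM (2.71) and reached 156 at 48 h. Cav1, the coat protein of caveolae, went from 9.35 to 56.6 FPKM (2.58), and Fzd1, a Wnt receptor, from 4.85 to 28.4 (2.52). Ypel2 (2.51), Doc2g (2.66) and Rasd2, a small GTPase (2.92), completed the set together with Olfml3. Olfml3, a secreted olfactomedin-domain protein, differed from the others in its course, with FPKM of 7.08, 18.4, 61 and 10.8 at the 4 times. Its 24 h value alone was high, and the change was 8.51-fold (5.69 to 13.6).

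Among the 15 genes at the other end, Ccnd1 was by far the most abundant. Ccnd1 (NM_007631, chr7:152115836-152125830) encodes cyclin D1, which carries cells into the cell cycle in answer to growth factors such as M-CSF. It stood at 699, 568, 140.1 and 328 FPKM at 0, 6, 24 and 48 h, and at 24 h was 4.99-fold lower than at 0 h (4.65 to 5.37). Mmp10, a matrix metalloproteinase (NM_019471, chr9:7502342-7510242), stood at 36.2, 23.2, 4.16 and 12.6 FPKM and was 8.51-fold lower at 24 h (4.81 to 17.2). Both were lowest at 24 h and partly back at 48 h.

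The remaining genes of this end were mostly scarce. Zfp618 had the most negative log2 change, -3.15, but on 72 reads at 0 h and 6 at 24 h, and Scml2 (-3.14) had 97 and 8. Itga8, an integrin subunit, went from 56.6 to 10.8 FPKM (-2.38) and Hdac9, a histone deacetylase, from 65.3 to 15.3 (-2.09). Gpr183, the receptor for oxysterols that guides migrating immune cells, went from 18.1 to 3.66 FPKM (-2.28). A pair of genes that act on replicating DNA were in the set. They were the uracil-DNA glycosylase gene Ung, at 65.9 and 15.7 FPKM (-2.06), and the cohesion factor gene Dscc1, at 74.1 and 17.9 (-2.04). Serpinb6b (-2.91), Rpp38 (-2.81), Acsbg1 (-2.72), 4931428F04Rik (-2.45), Rasgrp3 (-2.37) and Nes (-2.19) were the others.

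**Figure D2:**
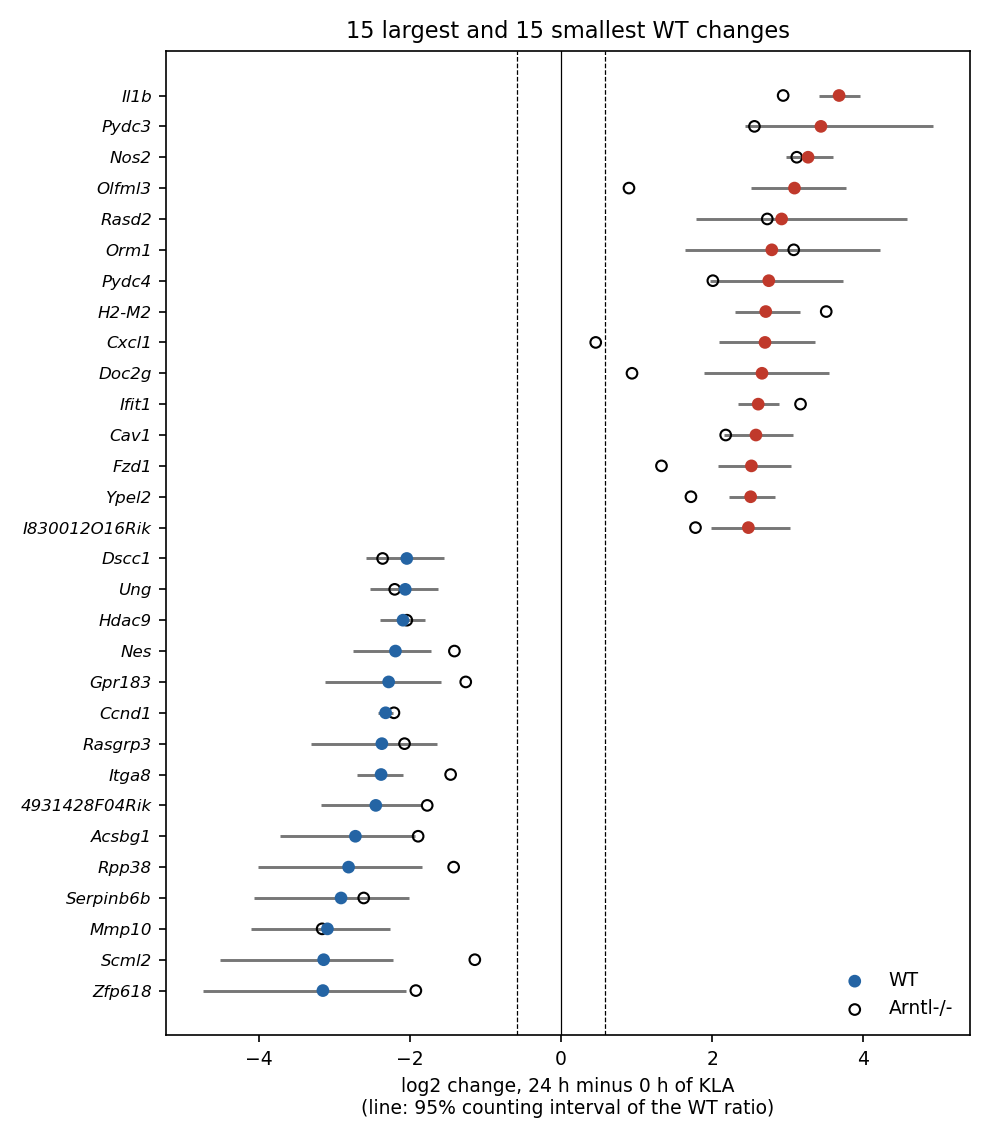
Log2 change from 0 to 24 h of KLA for the genes with the 15 largest and 15 most negative changes in WT BMDMs (filled points, 1 library a side), with the 95% counting interval of the WT ratio as a line, and the change in Arntl-/- BMDMs as open circles. Dashed lines mark 1.5-fold, and Il1b (3.68) and Zfp618 (-3.15) form the ends.

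Of 24 inflammatory cytokine genes, 12 were analysed. Of these 6 (50%) were higher, against 8.69% of all genes analysed, and none was lower, against 8.83%, with a median change of 0.42. Besides Il1b, the other IL-1 family genes Il1f9 (64.1 to 161 FPKM, 1.32) and Il1a (19.2 to 28.9, 0.59) were higher, as were Csf1, which encodes M-CSF itself (24.6 to 57.9, 1.23), Il15 (34.3 to 74.6, 1.12) and Tnfsf15 (9.07 to 15.9, 0.80). Tnf, the classical early cytokine, stood at 508, 631, 468 and 491 FPKM at the 4 times, a change of -0.12 at 24 h. Il6 was too scarce to be analysed. It had 0 reads at 0 h and 32 at 24 h, at least 13.5-fold higher against a floor of 3 reads in the 0 h library, while the counting interval, which uses no floor, began at 10.4. Its FPKM was 0, 14.4, 17.7 and 8.33 at the 4 times. Ifnb1 had 0 reads in both libraries.

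The anti-inflammatory list had 6 genes analysed, of which the receptor genes Il10ra (251 to 472 FPKM, 0.91) and Tnfrsf1b (1037 to 1594, 0.62) were higher (33.3%, all genes 8.69%) and none was lower. Its median was -0.07. Il1rn, the IL-1 receptor antagonist, lay at 649.9 and 675 FPKM (0.05), so the large difference in Il1b was not matched in its antagonist.

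Of 15 chemokine genes analysed, 7 (46.7%) were higher and 4 (26.7%) lower, against 8.69% and 8.83% of all genes analysed, and the median was -0.02. Beside Ccl5, the higher genes were 6 CXC chemokines. These attract neutrophils (Cxcl1, Cxcl2, Cxcl3 and Cxcl5) or T cells (Cxcl10 and Cxcl16). Cxcl2 stood at 565, 798, 1209 and 919 FPKM at the 4 times and was 2.14-fold higher at 24 h (1.99 to 2.29). Cxcl3 stood at 177, 342, 532 and 999.9 and was 3.01-fold higher (2.67 to 3.41). Cxcl1 stood at 13, 48.6, 84.8 and 68.4 and was 6.48-fold higher (4.26 to 10.3). The 3 genes lie side by side on mm9 chr5:91215127-91334964 and all were higher at 24 than at 6 h.

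The lower genes were all CC chemokines. The monocyte attractants Ccl2, Ccl7 and Ccl12 were high at 0 h and are neighbours on mm9 chr11, where with Myo1d they made up a run of 4 lower genes. Ccl2 stood at 2415, 1846, 1214 and 1843 FPKM and was 1.99-fold lower at 24 h (1.88 to 2.11). Ccl7 stood at 1767, 1197, 547 and 774 (3.23-fold lower, 2.97 to 3.5), and Ccl12 at 245, 280.2, 67.5 and 230.1 (3.63-fold lower, 2.74 to 4.89). All 3 were lowest at 24 h. Ccl4 also was lower, at 857 and 448 FPKM (-0.93), while the related Ccl3 lay within 1.5-fold (-0.15). Ccl5 was the CC chemokine that was higher, at 149, 407, 397 and 418 FPKM (1.42).

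The promoters of the 3 neighbouring CXC genes, Cxcl1, Cxcl2 and Cxcl3, and of 2 other higher genes of the pathway are shown because each holds the kappaB site GGGNNNTTCC that NF-kappaB dimers can bind. The sequences are those of RefSeq (GRCm38.p6), upstream of the start and written along the gene, with the match nearest to the start in capitals. They are Cxcl1 at chr5:90891154-90891203, Cxcl2 at chr5:90903801-90903850, Cxcl3 at chr5:90786031-90786080, Nfkbie at chr17:45555574-45555623 (all plus strand) and Tlr2 at chr3:83841752-83841801 (minus strand), with that match beginning 71, 78, 50, 106 and 173 bases before the start. Further matches lie in lower case in the stretches of Cxcl1 and Cxcl2, and elsewhere in the window of Cxcl3.
Cxcl1: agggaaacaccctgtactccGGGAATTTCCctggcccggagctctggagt
Cxcl2: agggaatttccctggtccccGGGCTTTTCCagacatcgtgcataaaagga
Cxcl3: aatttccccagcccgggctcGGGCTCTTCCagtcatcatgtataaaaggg
Nfkbie: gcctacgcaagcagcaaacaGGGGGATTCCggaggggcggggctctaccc
Tlr2: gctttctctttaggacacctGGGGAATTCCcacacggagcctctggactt

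This site was no more than slightly more frequent in higher genes as a whole. On either strand of the 250 bases before and 50 after a start, it was found in 7.32% of 956 windows of higher genes, 6.39% of 923 of lower genes, 6.23% of 10735 of all genes analysed and 5.56% of the 32851 windows of the RefSeq table. Of the 21 windows of NF-kappaB subunit and inhibitor genes, 11 (52.4%) held it. A match is a description of the letters and not a bound site.

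Receptors for chemoattractants were the list with the highest median change, 1.11. Of 9 analysed, 6 were higher (66.7%, all genes 8.69%) and none lower. Cxcr4, the receptor that holds leukocytes in the marrow, stood at 161, 205, 541 and 390.1 FPKM and was 3.36-fold higher at 24 h (3.07 to 3.7). The formyl peptide receptor genes Fpr1 (705 to 1429 FPKM, 1.02) and Fpr2 (321 to 802, 1.32), which sense bacterial peptides, were higher together and are neighbours on mm9 chr17:17967939-18030916. The other 3 were Ccrl2 (1.22), the chemerin receptor gene Cmklr1 (1.20) and the fractalkine receptor gene Cx3cr1, at 51.5, 60.8, 111 and 65.6 FPKM (1.11). C5ar1, for complement C5a, lay at 1894 and 1406 (-0.43).

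Of 31 analysed genes for Toll-like receptors, their adaptors and kinases, 9 were higher (29%, all genes 8.69%) and none lower (all genes 8.83%), with a median of 0.28. Tlr2, the receptor for bacterial lipopeptides, led with 284, 414, 989 and 605 FPKM, 3.48-fold higher at 24 h (3.29 to 3.68). Tlr4 itself lay at 165, 159, 189 and 162 (0.20) and Myd88 at a change of 0.16. The accessory genes Cd14 (1706 to 2799 FPKM, 0.71) and Ly86 (24.3 to 76.6, 1.65), the TRIF-side adaptor Ticam2 (1.02) and the signalling genes Traf1 (1.06), Traf2 (0.69) and Tirap (0.61) were higher. So was Irak3, a kinase-dead inhibitor of the pathway, at 424 and 758 FPKM (0.84). Tlr9, for CpG DNA, was at 30.1, 24.3, 57.9 and 50.4 (0.94).

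Among NF-kappaB genes, 4 of those that were higher encode members of the I kappaB family. Of 17 analysed, 5 were higher (29.4%, all genes 8.69%) and none lower (all genes 8.83%), with a median of 0.38. Nfkbie, which encodes the inhibitor I kappaB epsilon, stood at 101, 157, 264 and 201 FPKM (2.6-fold, 2.34 to 2.9). Nfkbia, Nfkbiz, Bcl3 and Nfkb2 changed by 0.83, 0.96, 1.07 and 1.14. The subunit genes Rela (0.28), Rel (0.12), Nfkb1 (0.38) and Relb (0.40) stayed within 1.5-fold.

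Of 20 feedback inhibitor genes analysed, 3 were higher and 3 lower (15% each, where 8.69% and 8.83% of all genes analysed were), with a median of 0.06. The higher were the cytokine signalling suppressors Socs3, at 183, 355, 527 and 452 FPKM (1.52), and Socs1, at 27.6 and 71.7 (1.38), and the phosphatase gene Dusp1, at 431 and 732 (0.77). The lower were Dusp10 (-1.20), Pdlim2, whose product removes nuclear p65 (-0.91), and the receptor-kinase antagonist Spry2 (-0.66). Tnfaip3, the A20 deubiquitinase of the NF-kappaB list, lay at 222 and 246 FPKM (0.15).

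All 40 type I interferon response genes analysed had a change above 0, and 29 of them (72.5%) were higher, with a median of 0.98. Among 16 interferon-inducible GTPase genes, which encode guanylate-binding and immunity-related proteins that attack the vacuoles of intracellular microbes, 14 (87.5%) were higher and the median was 1.07. Over all genes analysed, 8.69% were higher.

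Ifit1, an RNA-binding antiviral effector (NM_008331, chr19:34715379-34724499), stood at 24, 169.9, 147 and 335 FPKM at 0, 6, 24 and 48 h. It was 6.09-fold higher at 24 h (5.07 to 7.42). Irf7, the amplifier of interferon transcription, stood at 237, 406, 735 and 1172 and was 3.1-fold higher (2.87 to 3.36). Isg15, the ubiquitin-like modifier, stood at 88.4, 339, 287 and 634 (3.24-fold, 2.66 to 3.97) and Rsad2, which encodes viperin, at 71.6, 372, 254 and 475 (3.55-fold, 3.23 to 3.91). In Ifit1, Isg15 and Rsad2 the 24 h value was below both the 6 and the 48 h value, while Irf7 was higher at each later time. The GTPase gene Gbp2 differed again, with 33.4, 174, 120 and 109 FPKM (3.59-fold at 24 h, 3.02 to 4.3). Ifi44 (13.5 to 59.3 FPKM, 2.13) and Mx2 (6.87 to 29.3, 2.08) had the next largest changes of the response list. Ifi205 (0.10), Isg20 (0.22) and Adar (0.24) had the smallest. Stat2, a signal transducer of the interferon receptor, was modestly higher (0.73).

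Promoters of these genes are shown for the interferon element GAAANNGAAA, the core of sites bound by interferon regulatory factors. They are Ifit1 at chr19:34640784-34640833 (plus strand), Isg15 at chr4:156200855-156200904 (minus strand), and the GTPase genes Gbp2 at chr3:142620584-142620633, Igtp at chr11:58199502-58199551 and Irgm2 at chr11:58214893-58214942 (plus strand). The match nearest to the start is in capitals and begins 85, 66, 59, 34 and 64 bases before the start, and in Ifit1 and Gbp2 it lies on the opposite strand. Further matches, in lower case, lie in the stretches of Ifit1 and Isg15. Igtp and Irgm2 are neighbours whose stretches are nearly alike.
Ifit1: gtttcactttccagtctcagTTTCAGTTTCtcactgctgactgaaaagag
Isg15: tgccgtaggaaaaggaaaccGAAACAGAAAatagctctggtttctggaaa
Gbp2: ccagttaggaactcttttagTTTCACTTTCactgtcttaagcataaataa
Igtp: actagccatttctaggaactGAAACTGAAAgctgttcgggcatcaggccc
Irgm2: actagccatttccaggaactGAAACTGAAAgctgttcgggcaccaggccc

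The element was found in 7.32% of the windows of higher genes, 2.49% of those of lower genes, 3.37% of those of all genes analysed and 3.44% of all RefSeq windows, on either strand. It was found in 16 of 39 windows (41%) of type I interferon response genes and 9 of 11 (81.8%) of GTPase genes. Promoters were matched for 734 of the 911 higher and 722 of the 926 lower genes. Of the other motifs searched in the same windows, the AP-1 site TGANTCA was found in 7.22% of higher, 4.98% of lower and 5.06% of all analysed windows and 7.81% of all RefSeq windows. The TATA box TATAAA was found in 11.1%, 7.26%, 6.87% and 13.6% of the same sets. For both, the share over all RefSeq windows was above that of the higher genes. The E-box CACGTG, to which Bmal1 with Clock and also Myc can bind, was found in 7.53% of higher, 12.4% of lower, 10.4% of all analysed and 7.15% of all RefSeq windows. CCAAT (35.5%, 39.4%, 37.7% and 37.4%) and the CRE TGACGTCA (2.51%, 3.47%, 3.1% and 1.79%) completed the search.

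Of 19 genes for nitric oxide, arginine and prostaglandin enzymes, 7 were higher (36.8%, all genes 8.69%) and 1 lower (5.26%, all genes 8.83%), with a median of 0.29. Ptgs2, the inducible cyclooxygenase, stood at 73.7, 194, 235 and 191 FPKM (1.67), and Ptges, which acts after it in prostaglandin E2 synthesis, at 404 and 747 (0.89). Irg1, the itaconate-forming enzyme of activated macrophages, went from 1029.9 to 2173 FPKM (1.08) and Ass1, which regenerates arginine from citrulline, from 744 to 1202 (0.69). Odc1, the entry to polyamine synthesis, was lower (443 to 281, -0.66).

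**Figure D3:**
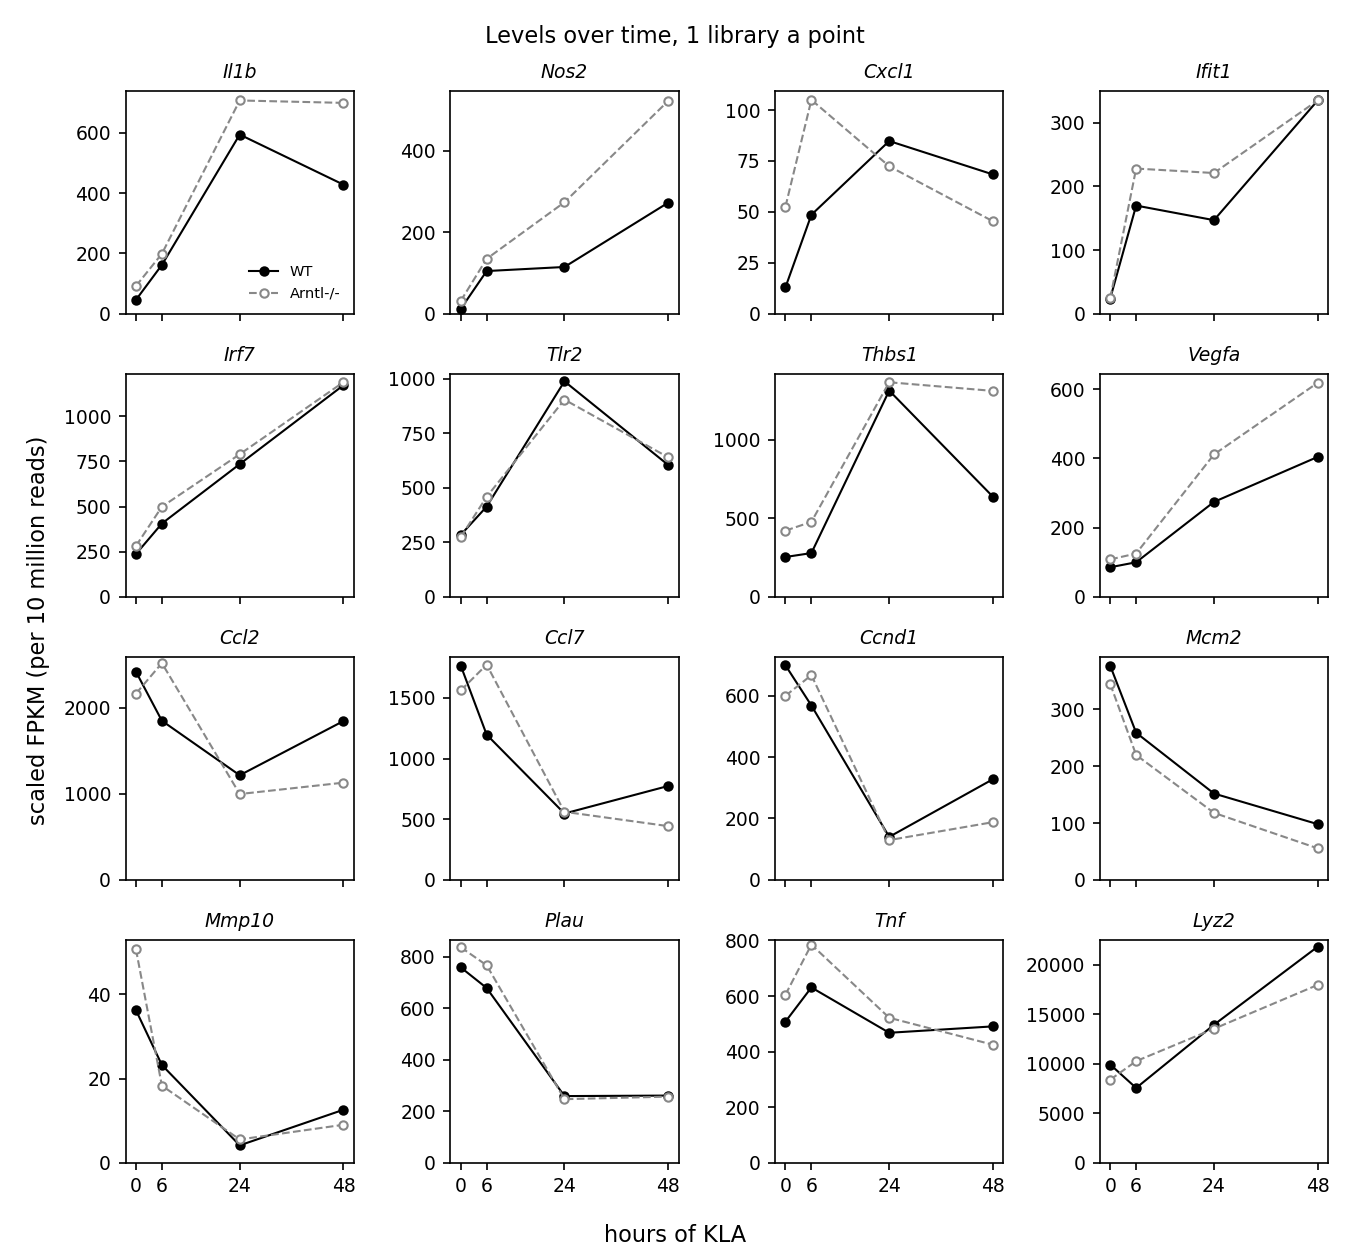
Scaled FPKM (per 10000000 reads, linear axes from 0) of 16 genes against hours of KLA in WT (filled points) and Arntl-/- BMDMs (open points), with 1 library a point. Il1b, Tlr2 and Thbs1 peaked at 24 h in WT cells, Ccl2, Ccl7, Ccnd1 and Mmp10 were lowest then, and Tnf and Lyz2 differed less than 1.5-fold between 0 and 24 h.

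Antigen presentation was described by 3 lists, to be read against the 8.69% of all genes analysed that were higher. Of 19 MHC class I presentation genes 1 (5.26%) was higher, the peptide-loading chaperone gene Tapbp (0.63), with a median of 0.24. Of 7 class II genes analysed 2 (28.6%) were higher, Cd74 (63.4 to 117 FPKM, 0.89) and H2-Ab1 (62.9 to 109, 0.80), with a median of 0.40. Among 14 costimulatory ligand and TNF receptor genes 4 (28.6%) were higher, namely the death receptor gene Fas (135 to 363, 1.42), Vcam1 (1.27), Icam1 (0.74) and Cd274, which encodes the inhibitory ligand PD-L1 (335 to 529.9, 0.66). Cd40 (-0.38), Cd80 (0.43) and Cd86 (0.48) lay within 1.5-fold.

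Of 19 scavenger and lectin receptor genes analysed 2 were higher (10.5%, near the 8.69% of all genes analysed) and none lower (median 0.08). Both, Clec4e (547 to 1201 FPKM, 1.13) and Clec4n (352 to 761, 1.11), encode C-type lectins for microbial glycolipids and mannans. Mrc1, the mannose receptor, lay at 1077 and 740.2 (-0.54). Clec10a, a galactose-binding lectin too scarce to be analysed, had 48 reads at 0 h and 0 at 24 h, at least 12.6-fold lower against a floor of 3 reads in the 24 h library, with a counting interval that began at 9.89. Of 24 Fc, complement and efferocytosis receptor genes 3 (12.5%) were higher, C3 (864 to 1449, 0.75), Fcgr4 (0.64) and the integrin gene Itgax (1.08), with a median of 0.14.

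Of 28 transcription factor genes of the macrophage lineage and the interferon regulatory factor family, 6 (21.4%) were higher and 3 (10.7%) lower, against 8.69% and 8.83% of all genes analysed, with a median of 0.21. Spi1, encoding PU.1, changed by 0.18 and Irf8 by 0.03. Hif1a, the hypoxia factor that also drives inflammatory glycolysis, stood at 254, 275, 481 and 461 FPKM (0.92), and Fos (0.93), Fosl2 (0.78), Cebpd (0.73), Cebpb (0.62) and Irf1 (177 to 271, 0.61) were higher too. The lower factors were Myc, the growth regulator, at 161, 182, 50.2 and 92.8 (3.2-fold lower at 24 h, 2.75 to 3.76), Fosl1 (-1.65) and Egr2 (-0.77). The AP-1 genes thus divided, since Fos and Fosl2 were higher and Fosl1 lower.

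Of 25 genes for glycolysis and HIF-1 targets 6 (24%) were higher, against 8.69% of all genes analysed, and none was lower (median 0.28). Vegfa, the angiogenic factor, stood at 85.4, 99.8, 274 and 404 FPKM (3.21-fold, 2.92 to 3.54). The glucose transporter gene Slc2a6 (1.33), the glycolytic activator Pfkfb3 (1.05), Bnip3 (0.92), Egln3 (0.74) and the lactate exporter Slc16a3 (0.60) were the other 5, while the enzyme genes of the main glycolytic steps, such as Gapdh (0.28), Pkm (0.26) and Eno1 (0.21), were within 1.5-fold.

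Calls among 25 TCA cycle genes were no more frequent than among all genes analysed (4% against 8.69% higher, 8% against 8.83% lower). Of these genes 1 was higher, the cytosolic Idh1 (410.3 to 875, 1.09), and 2 were lower, Suclg2 (59.8 to 28.6, -1.06) and the mitochondrial Idh2 (249 to 162, -0.62). The median was -0.08. Of 72 respiratory chain genes none was higher and 2 were lower, Ndufa12 (-0.62) and Ndufs8 (-0.59), around a median of 0.08. The 2 complex I genes were thus exceptions in a list that hardly differed.

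Of 19 LXR, PPAR and lipid efflux genes 6 were higher (31.6%, all genes 8.69%) and none lower (all genes 8.83%), with a median of 0.30. They included the cholesterol exporters Abca1 (195, 124, 422 and 300 FPKM, 1.11) and Abcg1 (0.73) and the apolipoprotein gene Apoe (1789.6 to 3152, 0.82). Abca1 was lower at 6 h than at 0 h and then higher. Of 22 sterol synthesis and uptake genes none was higher and 1, the sterol carrier gene Stard4, was lower (-0.72, list median -0.09).

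Of 31 antioxidant and iron genes 6 were higher (19.4%, all genes 8.69%) and none lower, with a median of 0.22. The higher genes were led by the cystine importer Slc7a11 (78.4 to 197, 1.33) and the mitochondrial superoxide dismutase Sod2 (495 to 1018, 1.04). The phagocyte oxidase subunit genes Cybb (0.76) and Ncf4 (0.60) were among them, and so were Nfe2l2 itself (0.69) and Gclm (0.61). Among 26 unfolded protein and ATF4 response genes 7.69% were higher and 3.85% lower, below the 8.69% and 8.83% of all genes analysed. Of them, Ddit4, an inhibitor of mTORC1 (52.2 to 171, 1.71), and Ppp1r15a (0.73) were higher and Psat1, a serine synthesis enzyme (136 to 58.6, -1.22), was lower (median 0.05).

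Of 78 cytoplasmic ribosomal protein genes none was higher or lower, with changes between -0.12 and 0.45 and a median of 0.17. Of the ribosomal genes 73 nevertheless had a change above 0, at a size below the 1.5-fold line, and the bin of genes with the highest level had a median of 0.09. Of 42 lysosomal genes 2 were higher and 1 lower (4.76% and 2.38%, below the 8.69% and 8.83% of all genes analysed), with a median of 0.17. In this list the V-ATPase subunit genes Atp6v0d2 (1.12) and Atp6v0a1 (-0.81) went opposite ways, and Ctsk was higher (0.82).

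**Figure D4:**
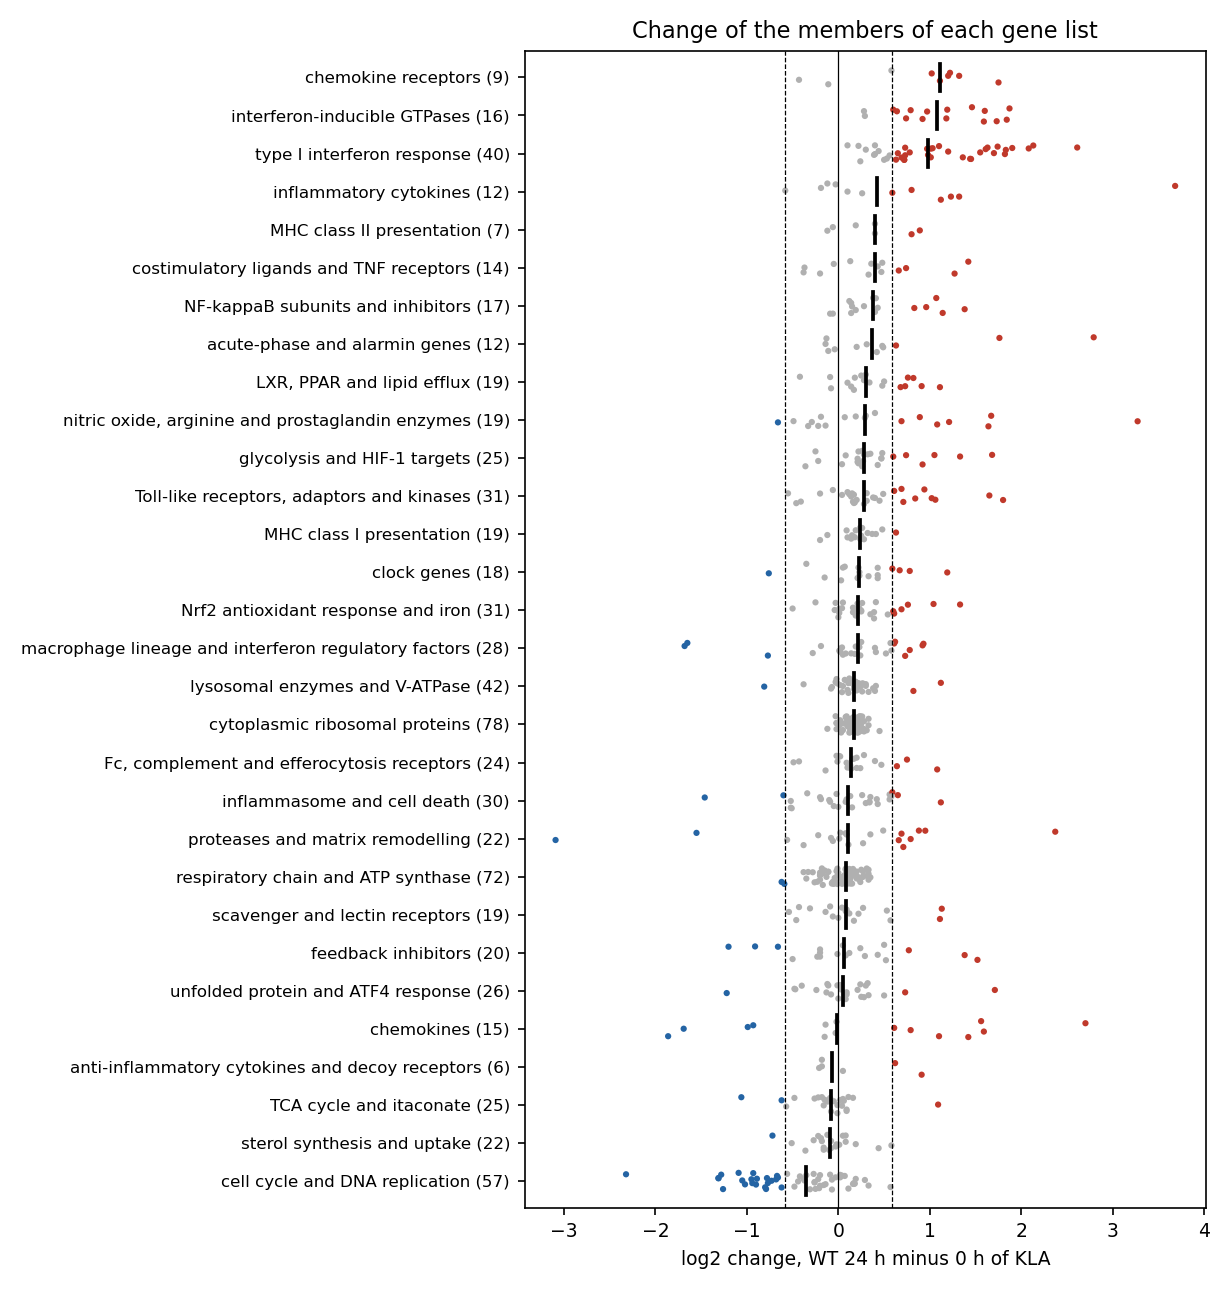
Log2 change from 0 to 24 h of KLA in WT BMDMs for every analysed member (point) of each of the 30 gene lists, ordered by the list median (black bar), with the number of members analysed in parentheses. Dashed lines mark 1.5-fold. Chemokine receptors (1.11), interferon-inducible GTPases (1.07) and the type I interferon response (0.98) have the highest medians, and cell cycle and DNA replication (-0.35) the lowest.

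Cell cycle and DNA replication was the list with the lowest median change, -0.35. Of its 57 genes, all analysed, 22 (38.6%) were lower and none was higher, against 8.83% lower over all genes analysed. The lower genes were mostly those of entry into the cycle and of DNA replication. All 6 helicase subunit genes from Mcm2 to Mcm7 were lower, with changes between -1.31 and -0.89. The same was true of the helicase loaders Cdt1 (425 to 178 FPKM, -1.26) and Cdc6 (-0.90) and of Mcm10 (-0.78), the polymerase genes Pola1 (125 to 50.3, -1.31), Pole (-0.80) and Pold1 (-0.77), and the nucleotide synthesis genes Tyms (-1.02), Rrm2 (-0.73) and Rrm1 (-0.66). Mcm2, for instance, stood at 377, 259, 152 and 98.1 FPKM at 0, 6, 24 and 48 h and was 2.49-fold lower at 24 h (2.3 to 2.69). Unlike Ccnd1, it was lower at each later time. The cyclin genes Ccne1 (269 to 130, -1.05) and Ccnd2 (-0.68), the kinase genes Cdk6 (-0.79) and Cdk1 (-0.67), and Gmnn, whose product holds back Cdt1 (-0.62), also were lower.

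The other 35 genes of the list lay within 1.5-fold. Among them were 4 genes used in mitosis or as proliferation markers, named after their values were seen. Mki67 lay at 318 and 363 FPKM (0.19), Aurka at 203 and 248 (0.29), Cenpa at 200.4 and 253 (0.33) and Plk1 at 164 and 156 (-0.07). At 48 h they were at 175, 68, 69.9 and 51 FPKM. In Arntl-/- cells their changes at 24 h were -0.27, -0.69, -0.49 and -0.46. In the promoters of the list, CCAAT was found in 37 of 51 windows (72.5%), against 37.7% of windows of all genes analysed. The cell cycle inhibitor gene Cdkn1b lay just inside the line (161 to 239, 0.57).

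Replication-dependent histone genes, whose transcripts peak in S phase and mostly lack a polyA tail, went the other way from the replication genes. This list was added after the values were seen. Of 24 such genes analysed among 68 in the table, 15 were higher and none lower, where 8.69% and 8.83% of all genes analysed were, with a median of 0.74 and a summed FPKM of 4224 at 0 h and 6767 at 24 h. Hist1h4n, for example, was at 70.1, 142, 253 and 186 FPKM (1.85). Many of these genes are near copies and share reads. Among other transcripts without a usual polyA tail, 2 that were picked by no rule set beforehand were higher as well. The ribosomal RNA precursor Rn45s was at 14488 and 22139 FPKM (0.61) and the nuclear RNA Malat1 at 1157 and 1786 (0.63). In Arntl-/- cells 9 of the 24 histone genes were higher and 2, Hist1h3b and Hist1h3d (both -0.75), were lower, with a median of 0.45. Of all genes analysed, 7.80% were higher and 9.57% lower in those cells. Rn45s and Malat1 changed by 0.83 and 0.81 there. The part of RNA selection in the histone values was not tested.

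Of 30 inflammasome and cell death genes 3 were higher and 2 lower (10% and 6.67%, near the 8.69% and 8.83% of all genes analysed), with a median of 0.11. Birc3, an inhibitor of apoptosis and NF-kappaB regulator, was higher (224 to 486, 1.12), with Bcl2a1a (0.65) and Bbc3 (0.59). Bcl2, the prototype survival gene, stood at 70.5, 63.5, 25.6 and 44.7 (2.74-fold lower, 2.21 to 3.44), and Bid was lower (-0.60). Nlrp3 (248 to 366, 0.56) and Casp1 (0.15) lay within the line, so Il1b differed far more than the genes that process it.

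Of 22 protease and matrix genes 7 were higher (31.8%, all genes 8.69%) and 2 lower (9.09%, all genes 8.83%), with a median of 0.10. Thbs1, thrombospondin 1, an adhesive glycoprotein that activates TGF-beta, stood at 254, 279, 1315 and 638 FPKM and was 5.18-fold higher at 24 h (4.98 to 5.39). Serpinb2, an inhibitor of plasminogen activators, was higher (320.4 to 617, 0.95), while Plau, the urokinase it inhibits, stood at 758, 678, 259 and 261 (2.92-fold lower, 2.73 to 3.14). Vcan (0.79), Mmp19 (0.71), Mmp2 (0.69) and the membrane-bound Mmp14 (1313 to 2078, 0.66) were higher. Stromal cell markers were measured beside them. Of 11 analysed of 14, 4 were higher (Pdgfrb, Dcn, Sparc and Col3a1) and 1 lower (Acta2), 36.4% and 9.09% against 8.69% and 8.83% of all genes, with a median of 0.54 and a summed FPKM of 675 at 0 h and 889 at 24 h. In Arntl-/- cells the summed stromal FPKM was 481 and 549, and Thbs1 changed by 1.70. The part of stromal cells in the matrix values was not tested.

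Of 12 acute-phase and alarmin genes analysed 3 were higher (25%, all genes 8.69%) and none lower, with a median of 0.36. Hp, haptoglobin, stood at 371, 425, 1259 and 1523 FPKM (3.39-fold, 3.16 to 3.64), and the others were Orm1 and Chil3 (0.63). Saa3 was already at 5559 FPKM at 0 h and lay at 6366 at 24 h (0.20), and Lcn2 at 635 and 616 (-0.04). The summed FPKM of the neutrophil markers, which include the alarmin genes S100a8 and S100a9, was 1586 and 1896. S100a8 lay at 308 and 429 (0.48) and S100a9 at 164 and 148 (-0.14). Several inflammatory transcripts were thus abundant before KLA, among them Saa3, Ccl2, Irg1 and Tnf.

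Of 18 clock genes analysed 4 were higher (22.2%, all genes 8.69%) and 1 lower (5.56%, all genes 8.83%), with a median of 0.23. The higher were Nfil3, a repressor of D-box genes (43.7, 47, 99.4 and 65.6 FPKM, 1.19), Per3 (0.78), Rora (0.67) and Tef (0.59). Nr1d1, which encodes RevErb-alpha, stood at 44.5, 33.9, 26.2 and 37 FPKM (-0.76). Arntl lay at 34.3, 32.3, 35.6 and 38.7 (0.05), and Clock (0.23), Per1 (-0.15), Per2 (0.23), Cry1 (0.43), Cry2 (0.03) and Nr1d2 (0.43) were within 1.5-fold. Of the 24 genes that the study names in its text, 21 were analysed, of which 7 were higher (Il1b, Nos2, Cx3cr1, Tlr9, Hif1a, Rora and Irf1) and 2 lower (Ccl2 and Nr1d1). These are 33.3% and 9.52%, against 8.69% and 8.83% of all genes analysed, and their median was 0.43. Csf1r, the M-CSF receptor, lay at 1672, 1230.2, 2443 and 2539 FPKM, just short of the line (0.55), and Mmp9 at -0.06. Ccl8, not analysed, had 6 reads at 0 h and 19 at 24 h, a ratio of 3.96 (1.54 to 12.3).

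Higher and lower genes lay side by side in places. Runs of at least 3 consecutive analysed genes that all differed in 1 direction numbered 31 for higher genes (104 genes) and 10 for lower genes (50 genes). The former included Ifit2, Ifit3, I830012O16Rik and Ifit1 on mm9 chr19:34625184-34724499, Gbp5, Gbp7, Gbp3 and Gbp2 on chr3:142159898-142300972, Tgtp1, Olfr56, Tgtp2 and Ifi47 on chr11:48798831-48948889, and Gm12250, Igtp and Irgm2 on chr11:57997345-58036285. Rsad2 and Cmpk2 (1.83 and 1.74) formed a run with Rnf144a on chr12:26991659-27164702, and Parp14, Dtx3l and Parp9 on chr16:35832964-35972707.

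A run of 6 on chr15:78075241-78236289 held Ncf4, both beta chains of the GM-CSF and IL-3 receptors (Csf2rb 0.80 and Csf2rb2 0.65, near copies of each other), 2 microRNA entries and Tst. On chr6:121133685-121315791 the de-ISGylase gene Usp18 (1.61) stood beside the transporter genes Slc6a12, at 48.2, 101, 244 and 379.8 FPKM (2.34), and Slc6a13 (0.79). Of the 50 lower genes in runs, 22 were gamma-protocadherin entries and 3, in a run of their own, alpha-protocadherin entries that end at the same base. All share their last exons and the reads there. They count largely as 1 measurement, with changes between -1.27 and -1.17. Paralogs such as Tgtp1 and Tgtp2, or Hist2h2aa1 and Hist2h2aa2, also share reads, and the counting ignored strand, so overlapping and antisense genes cannot be told apart.

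The change was also read in the Arntl-/- libraries, which share none of the WT libraries. Arntl itself was at 13.9 FPKM at 0 h and 18.8 at 24 h in those cells, below the WT 34.3 and 35.6. Among the same 10487 genes, 818 (7.80%) were higher and 1004 (9.57%) lower at 24 h in Arntl-/- cells. Of the 911 genes higher in WT cells, 822 (90.2%) had a change above 0 in Arntl-/- cells, where 51.5% of all genes analysed did, and 522 (57.3%) passed 1.5-fold. Of the 926 lower genes, 838 (90.5%) had a change below 0 and 513 (55.4%) passed 1.5-fold in that direction. In the opposite direction 13 of the higher genes (1.43%) and 10 of the lower genes (1.08%) passed 1.5-fold in Arntl-/- cells. The median change of the higher genes was 0.84 in WT and 0.66 in Arntl-/- cells, and that of the lower genes -0.82 and -0.65. WT values chose the genes, so a smaller median in the other genotype can follow from the choice alone and was not read as a difference between genotypes. Across all 10487 genes, which are not independent replicates, Pearson's r of the changes was 0.722.

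Values of single genes in both genotypes are given side by side. Nos2 changed by 3.27 in WT and 3.12 in Arntl-/- cells, Il1b by 3.68 and 2.94, Ccnd1 by -2.32 and -2.21 and Mmp10 by -3.09 and -3.16. Of the 32 genes at least 4-fold higher in WT cells, 28 passed 1.5-fold in Arntl-/- cells, and of the 18 at least 4-fold lower, 17 did. The type I interferon list had medians of 0.98 and 0.97 and the GTPase list 1.07 and 1.16. The cell cycle list had -0.35 and -0.69, with 22 lower genes in WT and 31 in Arntl-/- cells. Of all genes analysed, 8.83% and 9.57% were lower.

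For some genes the size or direction of the change was unlike in WT and Arntl-/- cells. Cxcl1 went from 52.6 to 72.4 FPKM (0.46) in Arntl-/- cells, from a 0 h level above that of WT cells (13). Olfml3 went from 9.99 to 18.7 (0.90) and the lymphocyte marker Cd4, which was 4.62-fold higher in WT cells on 14 and 53 reads, from 3.95 to 4.14 (0.07). The summed FPKM of the lymphocyte markers, 7 of which were at 0 in both WT libraries, was 31.1 and 34.4 in WT cells. Csf1 changed by 1.23 in WT and -0.34 in Arntl-/- cells, Nr1d2, which encodes RevErb-beta, by 0.43 and -1.13, and the scarce Ccl8 by 1.98 and -0.50. With 1 library for each condition these differences between genotypes were not tested.

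**Figure D5:**
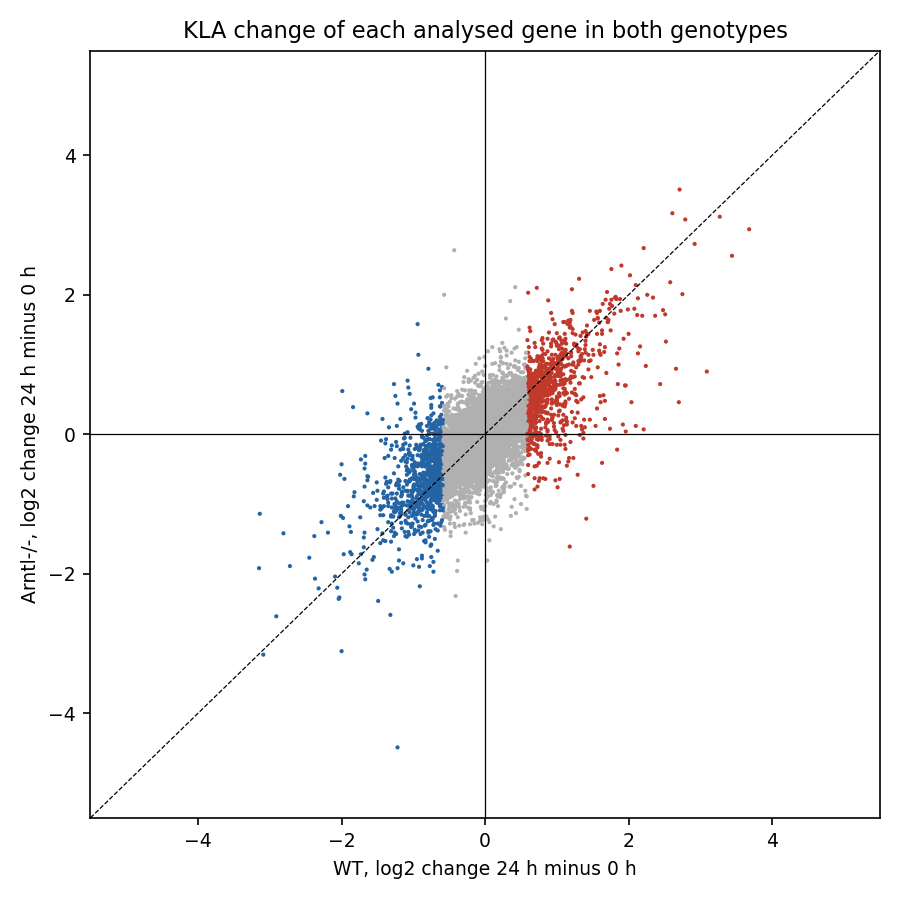
Log2 change from 0 to 24 h of KLA for the 10487 genes analysed in WT (horizontal) and Arntl-/- BMDMs (vertical), with 1 library for each genotype and time. Colour marks the WT call (red higher, blue lower, grey within 1.5-fold), the dashed line marks equal change, and Pearson's r is 0.722.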

How the data were processed

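PolyA RNA of WT and Arntl-/- BMDMs was captured with oligo-dT beads and sequenced paired-end, and groups were taken from the sample labels. The authors aligned reads to mm9 with STAR and counted them with HOMER on RefSeq exons, on both strands, with 1 transcript per gene. The setting given was at most 3 tags per position. The FPKM values they deposited are divided by exon length and given as per 10000000 reads. The scaling was not to the reads on genes alone. Before size factors, 1 read per kilobase of exon was 0.476 FPKM in WT cells at 0 h and 0.588 at 24 h. Of the analysed genes, 194 held over 3 reads per exon base in either library, up to 37.1 in Rn45s. The setting thus did not hold these genes to 3 reads per base, and its part in their values was not tested. The table held 24016 genes, 1 line that was a fragment was left out, and 4 value columns of further time points were not used. Coordinates of genes are those of mm9, as deposited.

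Multiplying FPKM by length returned whole reads, within 0.05 read plus the rounding of the deposited value, for at least 99.97% of values under 50 reads whose rounding was under 0.1 read. Size factors by the median of ratios, from 12377 genes in the 8 libraries (0.918 to 1.13), were divided out of the FPKM. Log2 ratios used a pseudocount of 0.1, and analysis was limited to genes reaching 100 scaled reads in any WT library. With 1 library a side no test was run. Named are the genes with the 15 largest and 15 most negative changes, in each list the 3 largest, 3 smallest and the most abundant member, the genes the study names and runs of neighbours. Other list members, chosen after their values were seen, are named to show what a list held. Members and lists were chosen with earlier results of these data known. Promoters came from RefSeq (GRCm38.p6), and 7 motifs were searched in 250 bases before and 50 after each start. Alternatives were other scalings, pseudocounts, filters, folds, and lowess corrections for level and length. The steps were tested on simulated data. Scripts ran in Python 3.11.15, with scipy 1.17.1 for intervals, statsmodels 0.14.6 for lowess, pandas 2.3.3 and numpy 2.4.6 for tables and matplotlib 3.10.9 for drawing. Some genes are not reported here.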

Additional observations from a re-analysis of the deposited data

Results flagged for a closer look

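Over all genes analysed, 13 of the 911 higher and 10 of the 926 lower genes passed 1.5-fold in the opposite direction in Arntl-/- cells, and 1 of them was among the genes named by rule. Hist1h3d, a replication-dependent histone H3 gene, was higher at 24 h in WT cells, with a log2 change of 0.73 (60.3 to 100.1 FPKM, 64 and 84 reads), and lower in Arntl-/- cells, with -0.75 (56.2 to 33.5 FPKM, 88 and 42 reads). The difference between genotypes was not tested, since each condition had 1 library. This gene has near copies, and whether they share its reads was not tested.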

How the results depend on the processing

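Of 12 alternatives, 10 recompute a list median, and the 330 medians they gave kept their sign. The numbers of higher and lower genes depended on which genes entered and on the line. They were 2130 and 2224 among genes with an FPKM of at least 1 in either library, 2501 and 2710 with no filter, 308 and 276 at 2-fold, and 473 and 419 where the counting interval had to lie wholly past 1.5-fold. Without size factors they were 824 and 1060, with a median of all genes of -0.04, and with a correction for expression level 981 and 832. The shares of higher and lower genes that had the same direction in Arntl-/- cells were 65.8% and 70.1% with the FPKM filter, 61.3% and 64.7% with no filter, 92.9% and 94.2% at 2-fold, and 95.3% and 97.1% with the counting interval, and the former was 92.6% with a mean of at least 100 reads. The median of ribosomal protein genes was 0.14 without size factors and 0.13 with a correction for exon length. A correction for expression level gave medians of 0.08 for lysosomal and 0.13 for antioxidant and iron genes. Under the alternatives, 46 values of named genes moved beyond their counting interval and 2614 did not. Of the numbers of list members past the line, 113 moved by over 1.5 times and 775 did not, most of the former under the 2-fold line, the other filters or the counting interval. The cause was not tested. No paired analysis was possible because each group had 1 library. Depth limits the genes with few reads: of the 911 higher and 926 lower genes, 70 and 37 had under 100 scaled reads at both times.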
